A study of Mus musculus with 6 samples.

Results

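Neutral and cationic amino acids enter cells through carriers of several solute carrier families, and 10 of these genes were followed here in osteoclasts (OCs), the multinucleated cells that resorb bone. They were chosen by symbol from the 21492 genes of the table, and each of the 10 symbols matched 1 gene. The rule holds no measured value, but earlier results of these data were known when the carriers and the other lists were chosen. Slc3a2 encodes the heavy chain of the heteromeric carriers, and Slc7a5, Slc7a6, Slc7a7 and Slc7a8 encode light chains. Slc1a4 and Slc1a5 encode sodium-coupled exchangers, Slc38a1 and Slc38a2 encode sodium-coupled symporters, and Slc43a2 encodes a facilitator.

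The study asked how mice without DCIR, an inhibitory C-type lectin receptor of myeloid cells encoded by Clec4a2, differ in OC formation. RNA of Dcir-/- OCs was sequenced in 3 libraries, numbered 21, 22 and 83, and RNA of WT OCs in 3 libraries, numbered 3, 82 and 94. In both groups bone marrow-derived macrophages (BMMs) of mice aged 8 to 12 weeks were given M-CSF at 20 ng/ml, the growth factor of the macrophage lineage, and RANKL at 100 ng/ml, the cytokine that drives OC differentiation. The labels give day 4 and 2 days of RANKL. The methods give 2 days of M-CSF alone to form BMMs, and 4 days of culture with both factors. Dcir-/- mice had been backcrossed to C57BL/6J for 12 generations, and the WT C57BL/6J mice were bought and then housed beside them, so that genotype and origin of the mice cannot be told apart. Whether each library number stands for its own mouse or culture is not stated, so the p-values speak of variation among these 6 libraries alone, part of which may be technical.

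Total values per library lay between 33035020.2 and 34068308.6 adjusted counts. Near-equal totals and values that are mostly not whole are the pattern of counts adjusted to a common size, which is inferred here, and the depth of sequencing of each library is not known. Levels are given as CPM, the adjusted count scaled by the mean total of the libraries, where 1 CPM is 33.6 adjusted counts. Clec4a2 was at 0.788, 1.15 and 0.496 CPM in the Dcir-/- libraries and at 275, 239 and 289 CPM in the WT libraries. OC markers such as Ctsk, the matrix-degrading cathepsin, and Acp5, the tartrate-resistant phosphatase, were abundant in every library. The 14 markers of the list summed to 21080 to 27450 CPM in Dcir-/- OCs and to 20540 to 23190 CPM in WT OCs (mean higher in 13 of 14 tested, 0 past the test). Of these, 6 were higher without overlap, beside 10.5% of all genes, while Ctsk and Acp5 overlapped. At an unadjusted p under 0.05, limma had 4 higher, beside 5.82% of all genes. Markers of macrophages summed to 4109 to 4418 CPM in Dcir-/- OCs and to 4479 to 6095 CPM in WT OCs (mean lower in 11 of 11 tested, 2 past the test). Those of neutrophils summed to 323 to 439 CPM in Dcir-/- OCs and to 601 to 752 CPM in WT OCs (lower in 9 of 9, 4 past the test). Both counts of calls were 0 in the fits without Dcir-/- library 22, without Dcir-/- library 83 or without WT library 82, and that of macrophage markers also without Dcir-/- library 21. Markers of monocytes summed to 144.8 to 156.8 CPM in Dcir-/- OCs and to 207.9 to 298.5 CPM in WT OCs (mean lower in 7 of 9 tested, 1 past the test). That call was lost when any Dcir-/- library or WT library 82 was left out. Of the lymphoid markers the T cell gene Cd3d did not exceed 0.118 CPM in any library, and the immunoglobulin gene Ighm was at 6.40 to 12.1 CPM in Dcir-/- OCs and at 12.7 to 20.8 CPM in WT OCs. In bulk RNA, fewer cells of a type and less RNA per cell cannot be told apart. In a principal component view of all genes tested, the first axis (53.5% of variance) had WT library 3 at one end and Dcir-/- library 21 at the other. The second (27.5%) set WT library 94 apart. On neither axis did the genotypes overlap. The first had -22.4, -7.5 and -8.4 in the Dcir-/- libraries and 35.3, 7.1 and -4.1 in the WT libraries. The second had 7.1, 6.9 and 10.5 in the Dcir-/- libraries and 6, -3.3 and -27.2 in the WT libraries. Of the 14047 genes tested, limma called 62 (0.441%) at an adjusted p under 0.05, namely 21 genes with a higher level in Dcir-/- OCs and 41 with a lower one.

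The heteromeric carriers pair a light chain, which moves the amino acid, with the heavy chain 4F2hc, also known as CD98, which brings it to the plasma membrane. They are exchangers: LAT1, the product of Slc7a5, takes up leucine and other large neutral amino acids against intracellular glutamine, which the sodium-coupled carriers bring in. Leucine and arginine inside the cell signal to the growth kinase complex mTORC1, and when amino acids are short the kinase GCN2 raises the transcription factor ATF4, which induces carriers and aminoacyl-tRNA synthetases. In the OC lineage, 4F2hc is known for its part in cell fusion, and glutamine uptake is known to be needed for differentiation.

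Per length of exon, the 10 genes covered a wide range in OCs. Slc1a5, encoding the glutamine exchanger ASCT2, had the highest level at 143 ± 15.8 CPM per kb in Dcir-/- OCs and 118 ± 16.8 CPM per kb in WT OCs (SD of 3 libraries each), and 98.2% of the 21449 genes with a length had a lower mean over the 6 libraries. Slc3a2 followed at 61.1 ± 3.71 CPM per kb in Dcir-/- OCs and 65.0 ± 4.70 in WT OCs. Next came Slc43a2 at 34.8 ± 2.83 CPM per kb in Dcir-/- OCs and 44.0 ± 8.97 in WT OCs, and Slc38a2 at 30.9 ± 0.853 in Dcir-/- OCs and 25.8 ± 3.58 in WT OCs. These 4 genes lay above 89.3% or more of all genes. The 4 light chains formed a lower tier with Slc38a1, between 5.09 and 8.78 CPM per kb in the mean of Dcir-/- OCs and between 4.58 and 10.8 CPM per kb in the mean of WT OCs. The place of Slc38a1 at the low end rests on the length used, since per kb of its longest transcript it was at 12.1 CPM per kb in Dcir-/- OCs and 10.9 CPM per kb in WT OCs. Slc1a4, encoding the exchanger ASCT1, was the lowest at 1.28 ± 0.0774 CPM per kb in Dcir-/- OCs and 0.744 ± 0.290 CPM per kb in WT OCs. Of the neighbours in this order, Slc43a2 and Slc38a2 did not overlap in WT OCs but did in Dcir-/- OCs, and Slc7a5 and Slc7a7 overlapped in Dcir-/- OCs. In WT OCs the pairs Slc7a7 and Slc7a8, Slc7a5 and Slc7a6, and Slc7a6 and Slc38a1 overlapped.

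**Figure D1:**
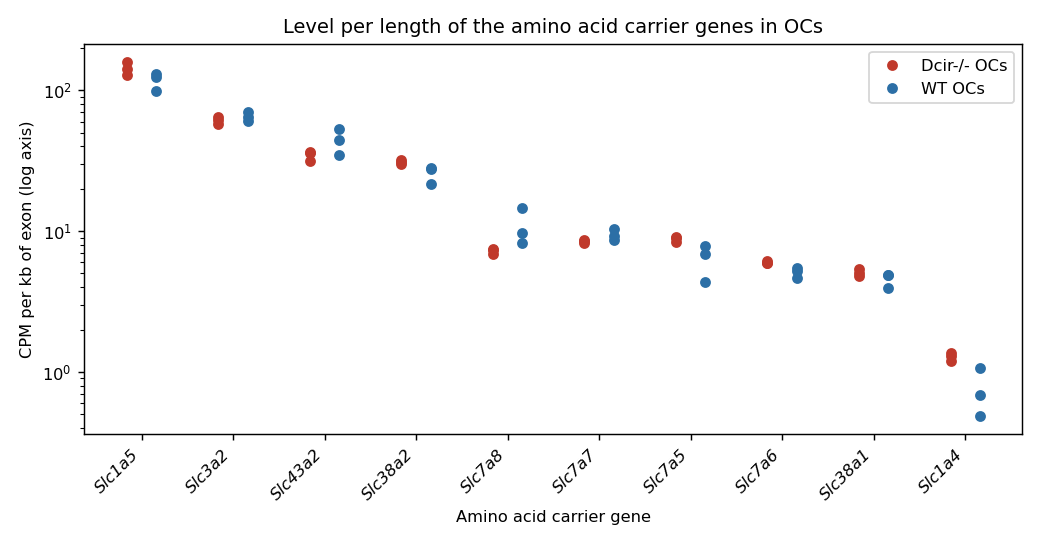
CPM per kb of exon (log axis) of the 10 carrier genes, ordered by the mean of all 6 libraries, with 1 point per library, Dcir-/- OCs to the left of WT OCs. Slc1a5 is highest and Slc1a4 lowest in both genotypes, and Slc1a4, Slc7a5 and Slc7a8 have WT points spread more widely than their Dcir-/- points.

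The genotype comparison asked whether the carrier genes differ between Dcir-/- and WT OCs. None of the 10 passed the test in either direction (limma, adjusted p under 0.05 over all genes tested), beside 0.441% of all genes. Their mean level was higher in Dcir-/- OCs for 6 genes and lower for 4, with a median log2 fold change of 0.19, beside 0.015 for all genes tested (interquartile range -0.098 to 0.115). At an unadjusted p under 0.05, limma had 4 carriers higher (Slc1a4, Slc7a5, Slc38a2 and Slc7a6), where 5.82% of all genes were, and 1 lower (Slc7a8), where 6.68% were. The Dcir-/- and WT libraries did not overlap for 6 of the 10, and those 4 were above every WT library in every Dcir-/- library, beside 10.5% of all genes. Slc7a7 and Slc7a8 were below every WT library in every Dcir-/- library, beside 9.34%. Fold changes are on the scale of log2(CPM + 1), Dcir-/- over WT, which understates the change of low genes such as Slc1a4.

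**Figure D2:**
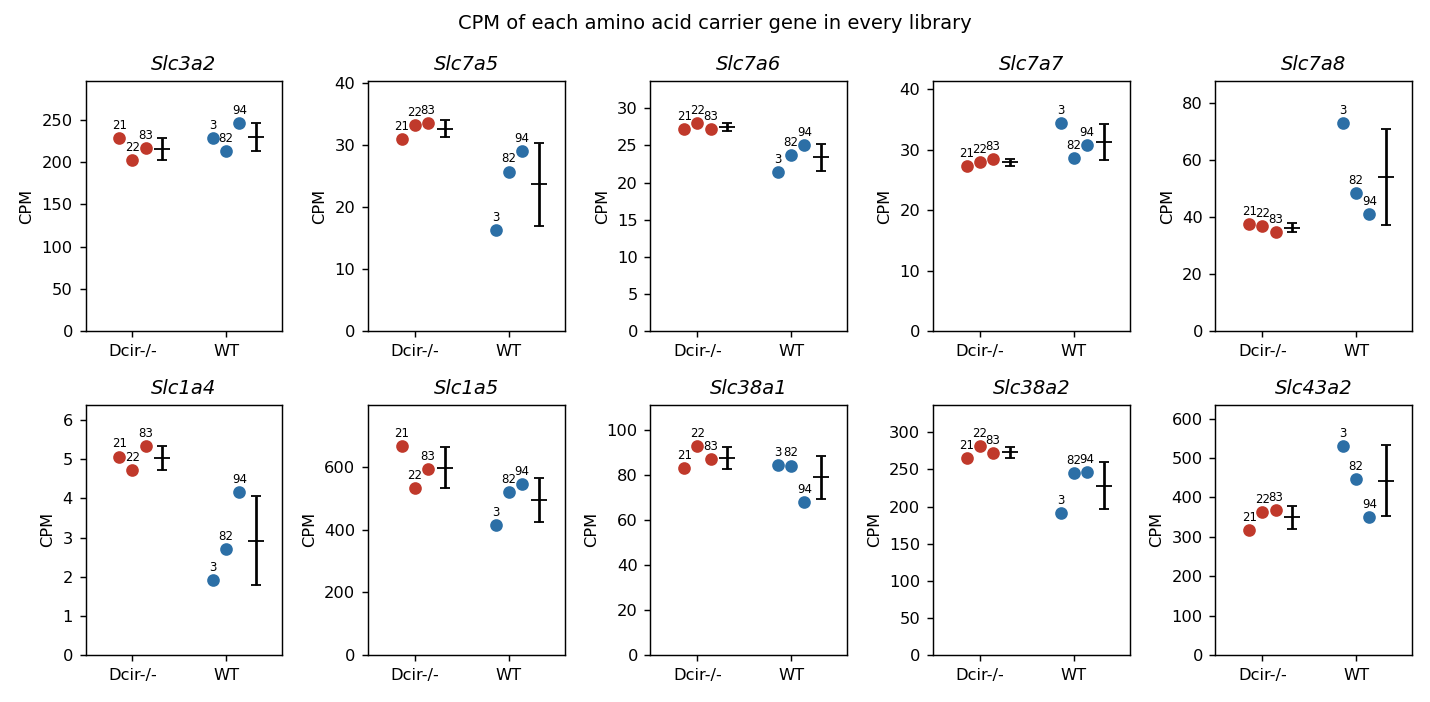
CPM of each carrier gene in every library (linear axes from 0, each gene with its own scale), red for Dcir-/- OCs and blue for WT OCs, with the library number above each point and the mean ± SD of 3 libraries beside the group. Slc7a5, Slc7a6, Slc1a4 and Slc38a2 lie higher and Slc7a7 and Slc7a8 lower in all 3 Dcir-/- libraries, and WT library 3 is the lowest or highest point of the gene in 8 of the 10.

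The promoters of 3 carriers are shown as examples, Slc1a4 and Slc7a7 with and Slc7a8 without the letters of the composite C/EBP-ATF element to which ATF4 binds. All 3 had Dcir-/- and WT libraries that did not overlap, which also held for other carriers. The sequences are those of RefSeq for GRCm38.p6, from 250 bases before to 50 bases after an annotated gene start, read 5′ to 3′ on the strand of the gene. The motif searched was TGATGNAA on both strands (TTNCATCA when read on the other strand), and capitals mark its matches. Slc1a4 at chr11:20332664-20332963 (minus strand), Slc7a7 at chr14:54417895-54418194 (minus strand, the most upstream of its starts) and Slc7a8 at chr14:54781837-54782136 (minus strand) are given in this order.
Slc1a4: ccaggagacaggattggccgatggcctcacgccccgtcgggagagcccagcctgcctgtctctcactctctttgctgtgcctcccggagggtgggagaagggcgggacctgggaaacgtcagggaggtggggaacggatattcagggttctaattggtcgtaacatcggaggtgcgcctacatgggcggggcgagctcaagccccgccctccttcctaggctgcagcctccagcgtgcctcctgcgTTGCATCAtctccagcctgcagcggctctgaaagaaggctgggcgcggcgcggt
Slc7a7: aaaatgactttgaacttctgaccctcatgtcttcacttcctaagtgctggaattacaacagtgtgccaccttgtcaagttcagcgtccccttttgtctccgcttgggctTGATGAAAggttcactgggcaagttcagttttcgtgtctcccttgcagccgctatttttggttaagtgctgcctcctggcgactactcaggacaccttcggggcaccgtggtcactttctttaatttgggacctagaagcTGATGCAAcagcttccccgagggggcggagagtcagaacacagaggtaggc
Slc7a8: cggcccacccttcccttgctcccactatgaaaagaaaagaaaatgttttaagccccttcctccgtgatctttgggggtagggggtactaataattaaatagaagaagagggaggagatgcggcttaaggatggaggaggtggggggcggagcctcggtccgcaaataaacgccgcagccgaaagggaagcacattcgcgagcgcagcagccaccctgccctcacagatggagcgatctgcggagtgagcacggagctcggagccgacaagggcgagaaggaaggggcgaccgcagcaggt
The window of Slc1a4 had 1 match, across the annotated start, and that of Slc7a7 had 2, of which 1 lay upstream and 1 across the start. Of the 5 windows given for the starts of Slc7a7, 1 other holds the second of these same matches and 3 hold none. The windows of Slc3a2, Slc7a6, Slc7a8, Slc38a2 and Slc43a2 held no match. Of these, Slc7a6 and Slc38a2 were higher in Dcir-/- OCs without overlap, and their windows are not printed. Windows were matched for 7 of the 10 carriers; Slc7a5, Slc1a5 and Slc38a1 were not matched. Of all 27025 genes with a window, 4.51% held the motif. Of the 17 genes of the ATF4 pathway described further on 35.3% did. That list includes known targets of ATF4, so a share above that of all genes follows in part from its choice. A match is a run of letters and not a measured site, and a window without a match leaves the rest of the gene unsearched.

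Slc3a2 (ENSMUSG00000010095.13, chr19:8706882-8723369, minus strand; all gene positions are those of GENCODE M21 on mm10), the heavy chain, overlapped between the genotypes. Its level was 228, 202 and 216 CPM in the Dcir-/- libraries and 228, 213 and 246 CPM in the WT libraries, a mean of 215.5 ± 13.1 CPM for the Dcir-/- group and 229 ± 16.6 CPM for the WT group (SD of 3 libraries each). The difference of -0.09 on the log2 scale had a 95% confidence interval of -0.28 to 0.10 (SE 0.08, limma adjusted p = 0.726).

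Slc7a5 (ENSMUSG00000040010.10, chr8:121881150-121907694, minus strand) encodes LAT1, the leucine carrier. Its level was 31.0, 33.2 and 33.5 CPM in the Dcir-/- libraries and 16.2, 25.7 and 29.05 CPM in the WT libraries. Every Dcir-/- library was above every WT library, the Dcir-/- libraries lay close together, and WT library 3 was far below the other WT libraries. The mean was 32.6 ± 1.38 CPM for the Dcir-/- group and 23.7 ± 6.66 CPM for the WT group (SD of 3 libraries each). This gave a log2 fold change of 0.48 (SE 0.19, 95% confidence interval 0.055 to 0.91, limma adjusted p = 0.343). Without WT library 3 it was 0.24 (SE 0.10, limma adjusted p = 0.303). The gene lies within the span of Gm20388 on the opposite strand, with 0 bases of shared exon.

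Slc7a6 (ENSMUSG00000031904.5, chr8:106168857-106198706, plus strand) and Slc7a7 (ENSMUSG00000000958.10, chr14:54369442-54417780, minus strand) encode the y+L carriers, which exchange cationic amino acids such as arginine for neutral ones with sodium. Slc7a6 was at 27.2, 28.0 and 27.1 CPM in the Dcir-/- libraries and at 21.4, 23.7 and 25.05 CPM in the WT libraries. These libraries did not overlap, with all of the Dcir-/- ones higher. The mean was 27.5 ± 0.508 CPM for the Dcir-/- group and 23.4 ± 1.85 CPM for the WT group (SD of 3 libraries each; log2 fold change 0.23, SE 0.09, 95% confidence interval 0.014 to 0.44, limma adjusted p = 0.372). Slc7a7, the y+L carrier of macrophages and of the gut and kidney epithelium, was at 27.3, 28.0 and 28.4 CPM in the Dcir-/- libraries and at 34.4, 28.6 and 30.7 CPM in the WT libraries. It too did not overlap, but in the opposite direction and with Dcir-/- library 83 just below WT library 82. The mean was 27.9 ± 0.590 CPM for the Dcir-/- group and 31.3 ± 2.97 CPM for the WT group (SD of 3 libraries each), and the log2 fold change of -0.15 had an interval that included 0 (SE 0.10, 95% confidence interval -0.37 to 0.06, limma adjusted p = 0.574). With WT library 3 left out it was -0.08 (SE 0.09, limma adjusted p = 0.708). Exons of Slc7a7 share 232 bases with Oxa1l on the opposite strand, a gene of mitochondrial protein insertion that was at 121.5 ± 2.89 CPM for the Dcir-/- group and 115.5 ± 12.04 CPM for the WT group. The libraries were made with a stranded kit, but no source used here gives the strand setting of the counting. Whether reads of this stretch were told apart is thus not known.

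Slc7a8 (ENSMUSG00000022180.7, chr14:54722209-54781946, minus strand) encodes LAT2, which exchanges neutral amino acids of all sizes. Its level was 37.5, 36.8 and 34.6 CPM in the Dcir-/- libraries and 73.0, 48.5 and 40.9 CPM in the WT libraries. All Dcir-/- libraries were below all WT libraries, within a narrow band, while the WT libraries were widely spread and WT library 3 was the highest. The mean was 36.3 ± 1.51 CPM for the Dcir-/- group and 54.2 ± 16.8 CPM for the WT group (SD of 3 libraries each). On the log2 scale the fold change was -0.52 (SE 0.18, 95% confidence interval -0.94 to -0.10, limma adjusted p = 0.301). Without WT library 3 it was -0.29 (SE 0.10, limma adjusted p = 0.227). WT library 3 was also the highest in the sum of the macrophage markers, at 6095 CPM against 4848 and 4479 CPM in WT libraries 82 and 94.

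Between the chains, the summed level of the 4 light chains per kb was 0.464, 0.540 and 0.497 of that of Slc3a2 in the Dcir-/- libraries and 0.526, 0.504 and 0.441 in the WT libraries. The groups overlapped, with a mean of 0.501 ± 0.0378 in Dcir-/- OCs and 0.490 ± 0.0442 in WT OCs (SD of 3 libraries each). Within that sum the makeup differed in order. The level of Slc7a5 per kb over that of Slc7a8 was 1.12, 1.22 and 1.31 in the Dcir-/- libraries and 0.300, 0.715 and 0.958 in the WT libraries, so that on this length LAT1 transcripts were above LAT2 transcripts in all of the Dcir-/- libraries and below them in all of the WT libraries. For the y+L pair, Slc7a6 over Slc7a7 was 0.723, 0.726 and 0.692 in the Dcir-/- libraries and 0.450, 0.601 and 0.591 in the WT libraries. In both pairs the first gene was higher and the second lower without overlap, so their ratios could not overlap either. These pairs were picked after their values were seen and were not tested, and for 3 libraries against 3 an exact two-sided permutation test cannot go below p = 0.1. Which light chain comes first depends on the length used. Per kb of all exons Slc7a5 was first in the 3 Dcir-/- libraries, whereas Slc7a8 was first in WT libraries 3 and 82 and Slc7a7 in WT library 94. Per kb of the longest transcript Slc7a7 was first in every library but WT library 3, where Slc7a8 was. The mean of Slc7a5 over Slc7a8 was 1.21 ± 0.0963 in Dcir-/- OCs and 0.658 ± 0.333 in WT OCs per kb of all exons. It was 1.04 ± 0.0828 in Dcir-/- OCs and 0.566 ± 0.286 in WT OCs per kb of the longest transcript (SD of 3 libraries each). The length scales this ratio alike in every library, so it cannot change whether the groups overlap. On the longest transcript Dcir-/- library 21 was at 0.960, with Slc7a5 below Slc7a8.

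**Figure D3:**
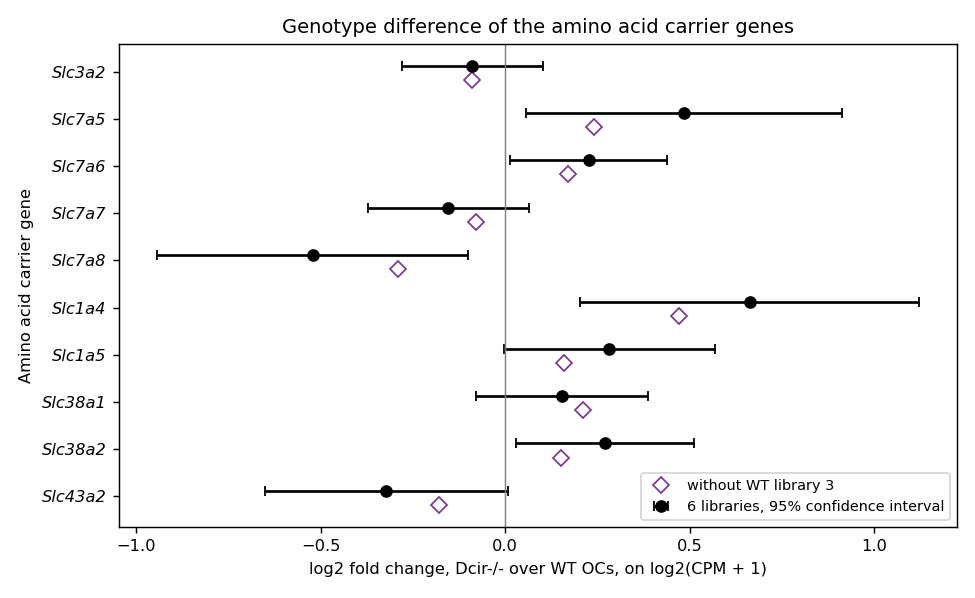
Log2 fold change of each carrier gene, Dcir-/- over WT OCs on log2(CPM + 1), with its 95% confidence interval from limma over 6 libraries (black), and the value without WT library 3 (open diamonds). The intervals of Slc7a5, Slc7a6, Slc7a8, Slc1a4 and Slc38a2 leave out 0, and all 10 values keep their sign without WT library 3, with 8 of them nearer to 0.

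Slc1a4 (ENSMUSG00000020142.12, chr11:20302180-20332713, minus strand) encodes ASCT1, an exchanger of alanine, serine, cysteine and threonine. Its level was 5.07, 4.72 and 5.33 CPM in the Dcir-/- libraries and 1.90, 2.70 and 4.15 CPM in the WT libraries. The Dcir-/- libraries were all above the WT libraries and the WT libraries were far apart. The mean was 5.04 ± 0.304 CPM for the Dcir-/- group and 2.92 ± 1.14 CPM for the WT group (SD of 3 libraries each). It had a log2 fold change of 0.66 (SE 0.20, 95% confidence interval 0.20 to 1.12, limma adjusted p = 0.239). This was the largest fold change of the 10 at a pseudocount of 1 CPM. With a pseudocount of 0.1 CPM it was 0.83, but with 5 CPM it was 0.35, nearer to 0 than those of Slc7a5 (0.42) and Slc7a8 (-0.48). Without WT library 3 the fold change of Slc1a4 was 0.47 (SE 0.17, limma adjusted p = 0.24). Its promoter window, printed above, held 1 match of the ATF4 letters, but so did windows of Slc7a7, which was lower in Dcir-/- OCs, hold matches.

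Slc1a5 (ENSMUSG00000001918.17, chr7:16781340-16798274, plus strand) encodes ASCT2, which exchanges glutamine and other neutral amino acids. Its level was 666, 534 and 595 CPM in the Dcir-/- libraries and 414, 521 and 545.5 CPM in the WT libraries. Dcir-/- library 21 was the highest and WT library 3 the lowest, but Dcir-/- library 22 lay below WT library 94. The mean was 598 ± 65.7 CPM for the Dcir-/- group and 493 ± 70.1 CPM for the WT group (SD of 3 libraries each; log2 fold change 0.28, SE 0.13, 95% confidence interval -0.003 to 0.57, limma adjusted p = 0.404). Without WT library 3 it was 0.16 (SE 0.10, limma adjusted p = 0.485). Per kb, Slc1a5 was 124, 106.5 and 105 times Slc1a4 in the Dcir-/- libraries and 204, 181 and 124 times Slc1a4 in the WT libraries, so the pair differed by more than 100-fold in every library.

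Slc38a1 (ENSMUSG00000023169.15, chr15:96571418-96642913, minus strand) and Slc38a2 (ENSMUSG00000022462.7, chr15:96687392-96699730, minus strand) are neighbours on chromosome 15 and encode SNAT1 and SNAT2, which bring in glutamine and alanine with sodium. SNAT2 is the carrier known to be induced when amino acids are withdrawn. Slc38a1 was at 83.2, 92.8 and 87.0 CPM in the Dcir-/- libraries and at 84.7, 84.3 and 68.0 CPM in the WT libraries. Of these libraries WT library 94 was set apart, at the low end. The mean was 87.7 ± 4.85 CPM for the Dcir-/- group and 79.0 ± 9.52 CPM for the WT group (SD of 3 libraries each; log2 fold change 0.15, SE 0.10, 95% confidence interval -0.08 to 0.39, limma adjusted p = 0.603). When WT library 94 was left out it was 0.05 (SE 0.07). Slc38a2 was at 266, 281 and 272 CPM in the Dcir-/- libraries and at 191, 245.5 and 246.6 CPM in the WT libraries. All Dcir-/- libraries were higher, with WT library 3 well below the rest. Its mean was 273 ± 7.54 CPM for the Dcir-/- group and 228 ± 31.7 CPM for the WT group (SD of 3 libraries each). Its log2 fold change was 0.27 (SE 0.11, 95% confidence interval 0.03 to 0.51, limma adjusted p = 0.347). Without WT library 3 it was 0.15 (SE 0.08, limma adjusted p = 0.386). The level of Slc38a2 per kb over that of Slc38a1 overlapped between the groups, at 6.08 ± 0.167 in Dcir-/- OCs and 5.72 ± 1.33 in WT OCs (SD of 3 libraries each). Per kb of the longest transcript this ratio was 3.705 ± 0.102 in Dcir-/- OCs and 3.48 ± 0.8125 in WT OCs, a change of length that cannot alter the overlap.

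Slc43a2 (ENSMUSG00000038178.16, chr11:75531694-75577575, plus strand) encodes LAT4, a facilitator of branched-chain amino acids, phenylalanine and methionine that works without sodium and without exchange. Its level was 316.5, 362.5 and 368.6 CPM in the Dcir-/- libraries and 529, 448 and 349 CPM in the WT libraries. WT libraries 3 and 82 were above all Dcir-/- libraries, whereas WT library 94 lay among them. The mean was 349 ± 28.5 CPM for the Dcir-/- group and 442 ± 90.1 CPM for the WT group (SD of 3 libraries each). This gave a log2 fold change of -0.32 (SE 0.14, 95% confidence interval -0.65 to 0.007, limma adjusted p = 0.411). Without WT library 3 it was -0.18 (SE 0.11, limma adjusted p = 0.474). Gm45606, an antisense gene that shares 922 bases of exon with Slc43a2, was at 34.4 ± 2.62 CPM for the Dcir-/- group and 43.8 ± 12.2 CPM for the WT group. Here too it is not known whether reads of the shared stretch were told apart. Set against this other leucine carrier, Slc7a5 per kb was 0.265, 0.248 and 0.246 of Slc43a2 in the Dcir-/- libraries and 0.0830, 0.155 and 0.225 in the WT libraries, a pair that was also picked after its values were seen and did not overlap.

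Across the libraries, WT library 3 was the farthest from the mean of all 6 for 8 of the 10 carriers, and WT library 94 for the other 2, Slc3a2 and Slc38a1. Over all genes tested WT library 3 was the farthest for 33.7% and WT library 94 for 34.9%. WT library 3 deviated by -0.72 log2 units for Slc7a5, by -0.72 for Slc1a4, by -0.39 for Slc1a5 and by -0.38 for Slc38a2, and by 0.73 for Slc7a8 and 0.44 for Slc43a2. It was thus the lowest library for 5 carriers and the highest for 3. WT library 3 also had the highest sum of the macrophage markers (6095 CPM) and of the monocyte markers (298.5 CPM) and the lowest sum of the OC markers (20540 CPM), and the part of such cells in the carrier levels was not tested. With WT library 3 left out, none of the 10 carriers passed the test (limma, 13910 genes tested, 0.906% called), and 2 were higher and 1 lower at an unadjusted p under 0.05, beside 7.66% and 6.76% of all genes. The counts without overlap, which cannot fall when a library is left out, stayed at 4 higher and 2 lower. Of all genes 16.4% were then higher without overlap and 15.3% lower. The median log2 fold change of the carriers was then 0.155, beside -0.002 for all genes.

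**Figure D4:**
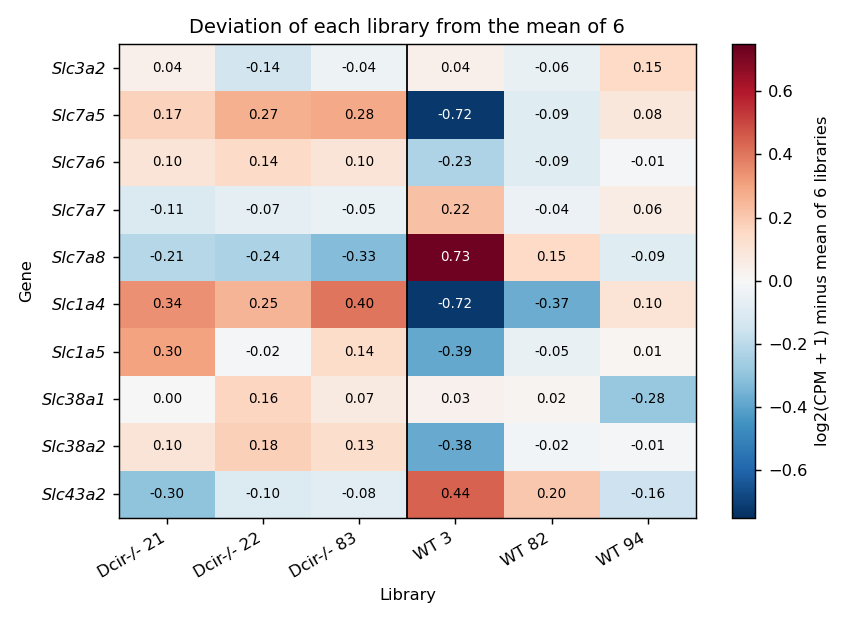
Deviation of each library from the mean of the 6 libraries in log2(CPM + 1), for each carrier gene, with the 3 Dcir-/- libraries left of the line and the 3 WT libraries right of it. WT library 3 holds the strongest colours, low for Slc7a5, Slc1a4, Slc1a5 and Slc38a2 and high for Slc7a8 and Slc43a2, while the Dcir-/- libraries are of like colour for most genes.

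The other amino acid carriers of the plasma membrane were read from the same fit. Of 26 listed genes 17 were in the table and 10 passed the filter of at least 1 CPM in 3 libraries. None passed the test (limma), and 2 were higher and 1 lower at an unadjusted p under 0.05, beside 5.82% and 6.68% of all genes. The median log2 fold change was 0.09. It was 0.18 without WT library 3 and 0 without WT library 94. Slc7a1, encoding the arginine carrier CAT1, was at 103, 109 and 102 CPM in the Dcir-/- libraries and at 74.2, 88.9 and 73.6 CPM in the WT libraries (log2 fold change 0.41, SE 0.09, limma adjusted p = 0.133). Every Dcir-/- library was above every WT library, and WT libraries 3 and 94 were alike. Slc6a17, a carrier of neutral amino acids known from synaptic vesicles, was at 10.7, 9.22 and 10.0 CPM in the Dcir-/- libraries and at 6.77, 8.88 and 7.02 CPM in the WT libraries (log2 fold change 0.37, SE 0.13, limma adjusted p = 0.306). Slc1a2, a glutamate carrier, was near 1 CPM, at 0.945, 0.921 and 1.10 CPM in the Dcir-/- libraries and 1.64, 1.54 and 1.87 CPM in the WT libraries (log2 fold change -0.43, SE 0.13, limma adjusted p = 0.238).

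Carriers of the lysosome, which resorbing OCs hold in large number, had 9 of 10 genes tested, with none past the test (limma). At an unadjusted p under 0.05, limma had 1 higher and 1 lower, beside 5.82% and 6.68% of all genes. Their median log2 fold change was -0.04. This median lay between -0.13 without WT library 94 and 0.04 without WT library 3. Slc38a9, the arginine sensor and carrier of the lysosomal membrane, was at 57.2, 55.0 and 58.6 CPM in the Dcir-/- libraries and at 50.2, 49.1 and 47.0 CPM in the WT libraries (log2 fold change 0.22, limma adjusted p = 0.288). Pqlc2, a lysosomal carrier of cationic amino acids, was at 14.0, 16.6 and 16.9 CPM in the Dcir-/- libraries and at 19.5, 18.2 and 19.7 CPM in the WT libraries (log2 fold change -0.26, limma adjusted p = 0.367). Slc36a1, a proton-coupled carrier of small amino acids, overlapped between the groups (log2 fold change -0.42, SE 0.20, limma adjusted p = 0.435). Of the mitochondrial carriers 10 of 12 were tested, with 0 past the test and 0 at an unadjusted p under 0.05 (limma), a mean higher in 8 and lower in 2, and a median log2 fold change of 0.07. The 3 with the smallest p were Slc25a18 at a log2 fold change of 0.49, Slc25a22 at -0.22 and Slc25a13 at 0.18, carriers of glutamate and aspartate whose libraries overlapped.

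For the genes that sense amino acids and signal to mTORC1, 32 of 33 were tested and none passed the test (limma). At an unadjusted p under 0.05, limma had 1 higher and 1 lower, beside 5.82% and 6.68% of all genes. The median log2 fold change was -0.01. Sesn1, encoding a sestrin of the leucine-sensing family, was at 67.1, 93.0 and 92.5 CPM in the Dcir-/- libraries and at 122, 113 and 99.2 CPM in the WT libraries (log2 fold change -0.41, SE 0.14, limma adjusted p = 0.281). Sesn2, its leucine-binding relative, had a log2 fold change of 0.20 (limma adjusted p = 0.454). Nprl3, of the complex that restrains mTORC1, was at 0.20 (limma adjusted p = 0.397). In the ATF4 pathway 17 of 18 genes were tested, with none past the test (limma). At an unadjusted p under 0.05, limma had 2 higher and 0 lower, beside 5.82% and 6.68% of all genes. The mean was higher in Dcir-/- OCs for 11 and lower for 6, with a median log2 fold change of 0.14. This median lay between 0.02 without Dcir-/- library 21 and 0.21 as single libraries were left out. Atf4 overlapped between the groups (log2 fold change 0.23, SE 0.14, limma adjusted p = 0.567). So did Atf3, whose mean was lower (log2 fold change -0.345, limma adjusted p = 0.77). The 3 genes with the smallest p follow. Asns, the asparagine synthetase that is a classical ATF4 target, was at 93.9, 86.5 and 89.2 CPM in the Dcir-/- libraries and at 43.9, 64.4 and 74.6 CPM in the WT libraries (log2 fold change 0.585, SE 0.17, limma adjusted p = 0.22). Its WT libraries were in the same order as those of Slc7a5, Slc7a6, Slc1a4, Slc1a5 and Slc38a2, with WT library 3 the lowest and WT library 94 the highest. Slc7a8, Slc38a1 and Slc43a2 had the reverse order. The first principal axis of all genes tested also ran from WT library 3 over WT library 82 to WT library 94, so the order is not particular to these genes. Eif2ak4, encoding GCN2, was at 45.5, 42.6 and 43.6 CPM in the Dcir-/- libraries and at 36.2, 39.1 and 33.9 CPM in the WT libraries (log2 fold change 0.265, limma adjusted p = 0.267). Chac1, a glutathione-degrading enzyme, was at 11.3, 12.2 and 11.96 CPM in the Dcir-/- libraries and at 4.92, 9.43 and 10.6 CPM in the WT libraries (log2 fold change 0.51, SE 0.23, limma adjusted p = 0.412).

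Among enzymes of glutamine, arginine and branched-chain amino acids, 17 of 20 were tested and none passed the test (limma). At an unadjusted p under 0.05, limma had 2 higher and 1 lower, beside 5.82% and 6.68% of all genes. The median log2 fold change was 0.03. This value was -0.02 without WT library 3 and 0.09 without WT library 94. Glul, the glutamine synthetase, was at 321, 375 and 371 CPM in the Dcir-/- libraries and at 494, 424 and 441 CPM in the WT libraries (log2 fold change -0.35, SE 0.09, limma adjusted p = 0.191). All Dcir-/- libraries were below all WT libraries for this enzyme, and for the mitochondrial transaminases Gpt2 and Got2 they were above. Gpt2 was at 47.7, 45.4 and 47.1 CPM in the Dcir-/- libraries and at 31.0, 39.5 and 39.1 CPM in the WT libraries (log2 fold change 0.35, limma adjusted p = 0.239). Got2 had a log2 fold change of 0.25 (limma adjusted p = 0.291).

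The cytosolic aminoacyl-tRNA synthetases, which load amino acids onto tRNA, had all their means on one side. All 20 were tested, 0 passed the test (limma), 8 were higher and 0 lower at an unadjusted p under 0.05, beside 5.82% and 6.68% of all genes. The mean was higher in Dcir-/- OCs for 20 of 20, with a median log2 fold change of 0.205 beside 0.015 for all genes. In 11 of the 20 every Dcir-/- library was above every WT library, beside 10.5% of all genes. Eprs was at 205, 206 and 199 CPM in the Dcir-/- libraries and at 162, 179 and 169.6 CPM in the WT libraries (log2 fold change 0.26, SE 0.07, limma adjusted p = 0.201). Mars1 and Aars had log2 fold changes of 0.32 and 0.27 (limma adjusted p = 0.317 and 0.335). The sum of the list was 3244, 3193 and 3156 CPM in the Dcir-/- libraries and 2412, 2873 and 3102 CPM in the WT libraries, lowest in WT library 3. Without that library 2 were higher at an unadjusted p under 0.05 (limma), beside 7.66% of all genes. The mean was higher for 15 and lower for 5, and the median log2 fold change was 0.106. Of the 20, 11 were higher without overlap, beside 16.4% of all genes, a count that cannot fall when a library is left out.

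**Figure D5:**
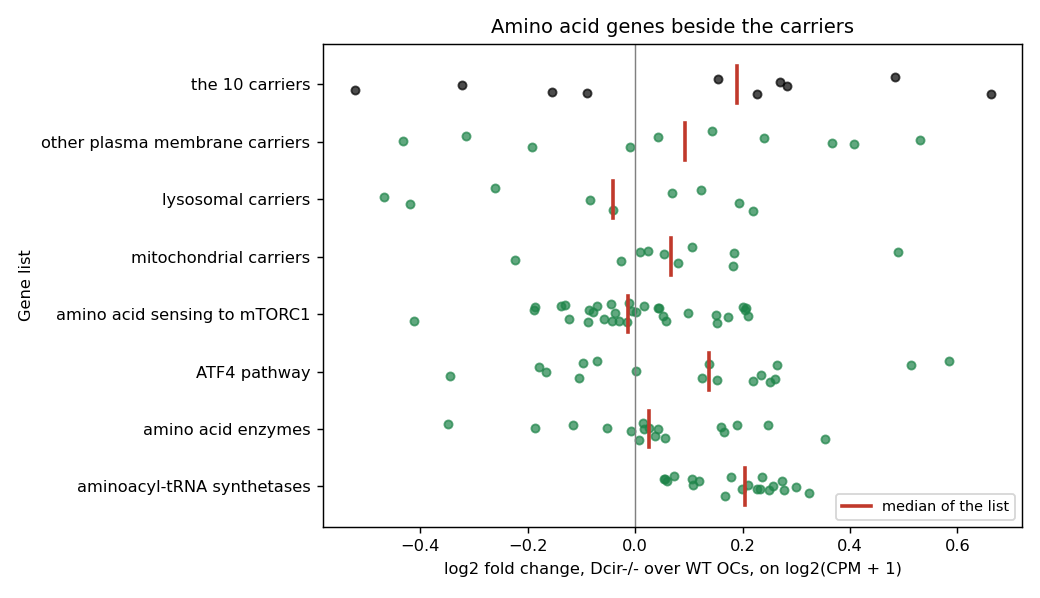
Log2 fold change, Dcir-/- over WT OCs on log2(CPM + 1), of the 10 carriers (black) and of each tested gene of 7 other amino acid lists (green), 1 row per list, with the median of the list as a red line. The carriers spread on both sides of 0, whereas all 20 aminoacyl-tRNA synthetases lie above 0 with a median of 0.205.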

How the data were processed

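RNA of 3 Dcir-/- and 3 WT OC libraries, all samples of the series, was analysed, each mapped to its genotype and number by its labels. Before deposit, the authors used Trim Galore 0.6.6 for trimming, HISAT2 2.2.0 for alignment (mm10), Rsubread 1.32.4 for counting on exons and edgeR 3.24.3 for normalisation. RNA had an integrity number above 7.0. The values the authors deposited are a signal, read from its pattern as counts adjusted to a common size (no source states this step), of which 95.8 to 99.8% per library are not whole, so that intervals for counting error could not be given. The strand setting and the annotation release of the counting were not given in the sources used here. The deposited fold changes and FDR of the authors were not used.

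CPM was the adjusted count divided by the mean total of the 6 libraries (33577739.2) and scaled to the usual CPM unit. Genes of at least 1 CPM in 3 libraries were fitted on log2(CPM + 1) in R 4.3.3 by limma 3.58.1 (mean-variance trend), with genotype as the only term, and p-values were adjusted by Benjamini-Hochberg over all 14047 genes tested. All 10 carriers passed the filter. The steps were tested on simulated data. Exon lengths and positions were those of GENCODE M21, matched by gene ID for 21449 of 21492 genes. All 10 carriers are named, and of each other list the 3 genes with the smallest adjusted p. The carriers and the lists were chosen with earlier results of these data known. Alternatives for filter, pseudocount, scaling, variance model, threshold, length and each library left out were run. Promoter windows were those of RefSeq (GRCm38.p6).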

Additional observations from a re-analysis of the deposited data

How the results depend on the processing

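No carrier had an adjusted p under 0.05 in any alternative run, or under 0.1 with all 6 libraries, and none changed sign in 149 refits (Slc1a4 was not tested with a filter of 5 CPM). The lowest limma adjusted p came in each case without WT library 94, at 0.0534 for Slc1a4, 0.0833 for Slc43a2, 0.0917 for Slc7a8 and 0.119 for Slc7a5. Leaving out 1 library in turn moved the log2 fold change of Slc7a5 between 0.24 and 0.65, of Slc7a8 between -0.70 and -0.29, of Slc1a4 between 0.47 and 0.88 and of Slc43a2 between -0.48 and -0.18, with the value nearest to 0 without WT library 3 in each. Over all genes, the count higher was 11 with a filter of 5 CPM and 39 at an adjusted p under 0.1, beside 21. The count lower was 22 with that filter, 27 with a pseudocount of 5 CPM, 25 with library quality weights (a fit of the weights that stopped before convergence) and 73 at an adjusted p under 0.1, beside 41. With 1 library left out the counts lay between 1 and 39 higher and between 1 and 87 lower, the fewest without Dcir-/- library 22 and the most without WT library 3. Without Dcir-/- library 21 they were 3 higher and 5 lower, without Dcir-/- library 83 they were 3 and 3, and without WT library 82 they were 6 and 3. Levels per kb moved for 16 of 20 values when the longest transcript was used as the length, and over all alternatives 13 medians and 29 counts of the lists moved. No paired analysis was possible because the Dcir-/- and WT libraries share no replicate number. With 3 libraries a group and no known depth, small differences could not be told from the spread between libraries.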
